A study of Homo sapiens with 8 samples.

Results

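The immunoglobulin light chain V genes were taken as every gene whose symbol, in the deposited annotation, names a numbered kappa (IGKV) or lambda (IGLV) variable segment of the main loci. There were 132 of them among the 63677 genes counted, 76 kappa and 56 lambda. Orphan copies on other chromosomes, which carry another kind of symbol, were not members. No measured value entered that rule, but the family was selected on earlier results of these counts, the split of the light chains between the groups, so the leading gene and the chain of each library are given as a description with no test. The counts came from RNA-seq of the human multiple myeloma (MM) cell lines JJN3 and H929. Each line was cultured for 24 h with 50 nM THZ1, which inhibits the transcriptional kinase CDK7 covalently, or with the vehicle, DMSO. Every group of line and treatment had 2 libraries, making 8, and each library was made from total RNA and read as single ends of 50 bases. Each line descends from 1 patient's tumor, and nothing in the labels says that replicates came from separate cultures, so p-values measure the spread between these libraries, which may be technical.

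A light chain is made from 1 V segment joined to 1 J segment by DNA recombination in a B cell precursor, and the joined VJ exon is spliced to a kappa or lambda constant region. A plasma cell, and the myeloma that grows from one, normally transcribes a single productive light chain at a high level, so the V gene and the choice between kappa and lambda act as a natural tag of the clone. Many V genes have close relatives: the kappa V genes stand in a proximal cluster and in an inverted distal copy of it, whose genes carry a D in their names, and V segments also gain somatic mutations, so that the transcribed copy can differ from the genome sequence.

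Total counts on genes were 17476443 to 19194371 per library, at which 3 counts, the limit that a count of 0 allows, equal 0.156 to 0.172 CPM (a count divided by its library's total, times 1000000). Intervals and limits given here cover counting error only. All 8 plasma cell markers examined (among them XBP1, IRF4, SDC1 and TNFRSF17) had 10 or more counts in some library of every group. SLAMF7, also among them, had 2 counts in H929 DMSO replicate 1 and 174 in replicate 2. The light chain V genes went against the labels of one line. The 2 libraries labelled H929 DMSO carried lambda V transcripts and the 2 labelled H929 THZ1 carried kappa V transcripts from other genes, and H929 is catalogued as a kappa line. The groups are therefore called the libraries labelled H929 DMSO and H929 THZ1, and between them THZ1 and a different origin of the cells cannot be told apart. One of these libraries, H929 DMSO replicate 2, held small counts of the kappa genes as well, and results that rest on it are given with and without it.

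Of the 132 genes, 91 had 0 counts in all 8 libraries, 29 peaked at 1 to 9 counts and 12 reached 10 counts in at least one library. Those 12 were 5 kappa genes, all of the IGKV3 family, and 7 lambda genes. The leading kappa genes, all of chromosome 2, were IGKV3-15 and IGKV3-7 of the proximal cluster, on the minus strand, and IGKV3D-11 of the distal cluster, on the plus strand. The V exons of IGKV3-7 and IGKV3D-11 differ from that of IGKV3-15 at 19 and 20 of 296 aligned positions.

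The V exons of the 3 leading lambda genes are shown because they held nearly all the lambda counts and because their likeness bears on how short reads are assigned. They were read from the GRCh37 genome, the assembly also named hg19 to which the authors aligned, with exon positions from the GENCODE annotation lifted to it, and they are germline reference sequence. All lie on the plus strand of chromosome 22, and capitals mark bases that differ from IGLV2-11 (chr22:23135185-23135484 printed, the first 300 of its 312 exon bases). IGLV2-23 (chr22:23040599-23040892) differs from it at 19 of 294 aligned positions. IGLV2-28 (chr22:23007120-23007377) is annotated as a pseudogene with a shorter V exon of 258 bases, and differs at 25 of 257 aligned positions, with 1 further base.
IGLV2-11: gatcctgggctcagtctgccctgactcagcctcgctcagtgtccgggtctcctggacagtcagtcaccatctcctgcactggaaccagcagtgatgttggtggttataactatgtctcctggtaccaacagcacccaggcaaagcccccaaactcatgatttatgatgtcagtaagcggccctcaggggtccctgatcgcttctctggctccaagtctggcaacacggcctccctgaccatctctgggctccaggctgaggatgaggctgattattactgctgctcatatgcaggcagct
IGLV2-23: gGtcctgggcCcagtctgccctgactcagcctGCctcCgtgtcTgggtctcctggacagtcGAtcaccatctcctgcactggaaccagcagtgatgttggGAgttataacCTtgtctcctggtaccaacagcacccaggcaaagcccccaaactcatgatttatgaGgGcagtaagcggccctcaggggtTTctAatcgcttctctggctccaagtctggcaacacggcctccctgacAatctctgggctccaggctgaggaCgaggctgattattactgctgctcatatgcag
IGLV2-28: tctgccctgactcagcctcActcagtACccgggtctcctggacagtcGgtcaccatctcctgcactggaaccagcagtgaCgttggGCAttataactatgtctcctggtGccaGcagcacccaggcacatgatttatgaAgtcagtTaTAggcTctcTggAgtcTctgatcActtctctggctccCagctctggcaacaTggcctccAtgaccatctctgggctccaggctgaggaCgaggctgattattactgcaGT

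In JJN3 a single gene, IGKV3-15, held almost every light chain V count. Its counts were 5064 and 5132 in the DMSO libraries and 7316 and 9117 in the THZ1 libraries. This was 99.3% (95% Wilson interval 99.1% to 99.5%) and 99.1% (98.8% to 99.3%) of all light chain V counts with DMSO, and 99.3% (99.0% to 99.4%) and 99.1% (98.9% to 99.3%) with THZ1. With shares this close to the whole, little room is left for a difference between treatments, and none is read from them. The inverse Simpson index, which is the number of equally used genes that would give the same concentration of counts, was 1.01 to 1.02 in the 4 libraries. The second gene was IGKV3D-11 with DMSO, at 7 and 11 counts, and the lambda gene IGLV3-9 with THZ1, at 13 and 20 counts. Lambda genes as a whole held 13 and 16 counts with DMSO, and 18 and 34 counts after THZ1, or 0.244% to 0.370% of the V counts.

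**Figure D1:**
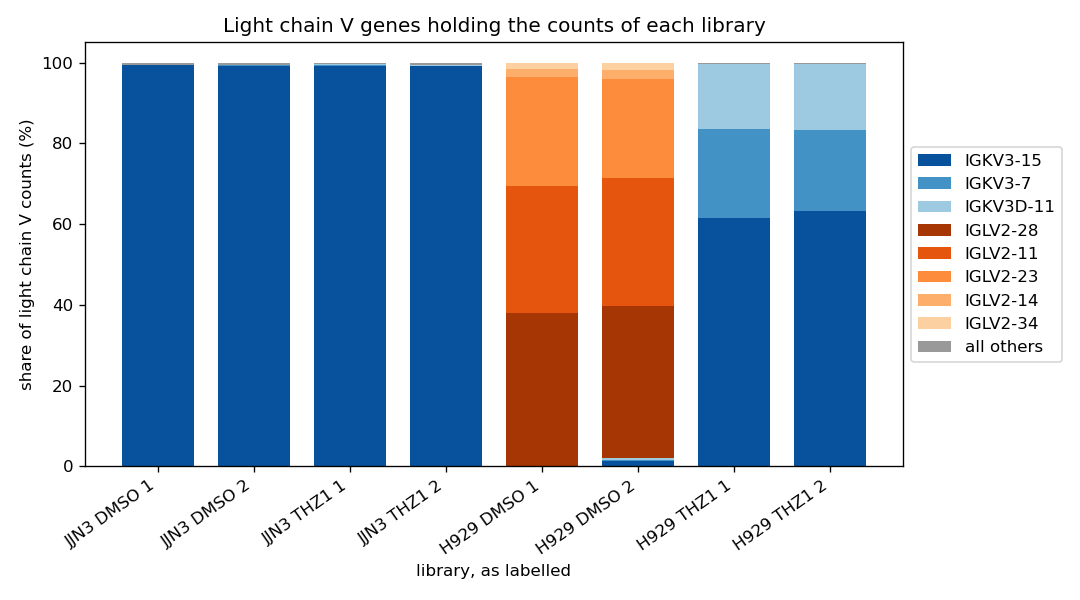
Share of the light chain V counts (vertical axis, percent) held by each leading gene in each of the 8 libraries (horizontal axis, as labelled), kappa genes in blue and lambda genes in orange. IGKV3-15 fills over 99% of each JJN3 bar, the libraries labelled H929 DMSO are split among IGLV2 genes, and those labelled H929 THZ1 among 3 IGKV3 genes.

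In the libraries labelled H929 DMSO, 5 genes of 1 lambda family, IGLV2, shared the counts. The leading gene was IGLV2-28, annotated as a pseudogene, with 11825 and 11049 counts, or 38.0% (37.4% to 38.5%) and 37.7% (37.1% to 38.2%) of the V counts. IGLV2-11 followed with 9807 and 9313 counts (31.5% and 31.8%), and IGLV2-23 with 8389 and 7202 (26.9% and 24.6%). The replicates gave the same order of these 3 genes. IGLV2-14 had 622 and 633 counts and IGLV2-34, also a pseudogene, had 508 and 514. The exons of these genes differ in length, and per kilobase of exon IGLV2-28 made up 46.6% and 46.1% of the V level, with 29.4% and 29.6% for IGLV2-11 and 20.0% and 18.2% for IGLV2-23. Lambda made up 99.99% of the V counts in replicate 1 and 98.0% (97.8% to 98.1%) in replicate 2, and the inverse Simpson index was 3.16 and 3.29. All 9 IGLV2 genes together had 0 counts in the other 6 libraries.

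The libraries labelled H929 THZ1 had the same leading gene as JJN3 but not the same distribution. IGKV3-15 had 19420 and 18570 counts, or 61.5% (61.0% to 62.1%) and 63.2% (62.7% to 63.8%) of the V counts. IGKV3-7 had 6948 and 5900 counts (22.0% and 20.1%) and IGKV3D-11 had 5075 and 4802 (16.1% and 16.4%). The intervals of IGKV3-15 did not overlap between the replicates, so these 2 libraries differed from each other by more than counting error. The gap to JJN3 was wider, since there IGKV3-7 had 1 to 12 counts and IGKV3D-11 had 7 to 14. The inverse Simpson index was 2.21 and 2.14, and lambda genes held 64 and 56 counts, 0.203% and 0.191%.

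**Figure D2:**
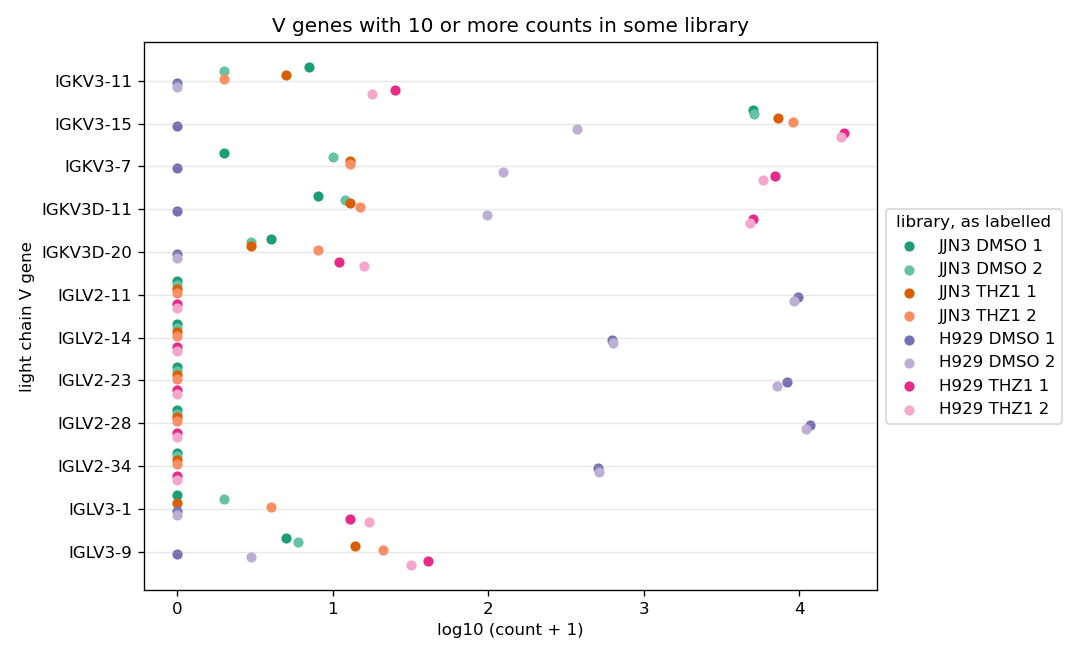
Counts, as log10 of the count plus 1 (horizontal axis), of the 12 light chain V genes (vertical axis) that reached 10 counts in at least one library, with 1 point per library. The IGLV2 genes lie above 0 only in the libraries labelled H929 DMSO, and IGKV3-7 and IGKV3D-11 reach 4802 counts or more only in those labelled H929 THZ1.

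Summed over families, nearly all V counts of each library lay in 1 family. IGKV3 genes held 99.6% to 99.7% of the V counts in JJN3 and 99.8% in both libraries labelled H929 THZ1, and IGLV2 genes held 99.99% and 97.9% in those labelled H929 DMSO. Of the V counts, 14 to 37 lay outside the leading family in JJN3. Outside it lay 3 in H929 DMSO replicate 1 and 607 in replicate 2, and 76 and 60 in the libraries labelled H929 THZ1. The summed level of light chain V genes was 266 and 271 CPM in JJN3 with DMSO and 422 and 498 CPM with THZ1, against 1606 to 1712 CPM in the 4 libraries labelled H929. Levels per cell and numbers of cells that transcribe the gene cannot be told apart in bulk RNA.

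The kappa counts of H929 DMSO replicate 2 had the make-up of the libraries labelled H929 THZ1. Replicate 1 had 0 counts of IGKV3-15, IGKV3-7 and IGKV3D-11, and replicate 2 had 372, 124 and 98. Among the 597 kappa counts of replicate 2 these were 62.3% (58.4% to 66.1%), 20.8% (17.7% to 24.2%) and 16.4% (13.7% to 19.6%), intervals that held the shares found under the THZ1 label, 61.7% and 63.4% for IGKV3-15. The levels in CPM were 1.99%, 1.97% and 2.02% of the mean under the THZ1 label. By a criterion chosen after these values were seen, 45 genes of all kinds had at most 2 counts in H929 DMSO replicate 1 and at least 1000 in both libraries labelled H929 THZ1. Every one of them, the 3 V genes included, had more than 2 counts in DMSO replicate 2, at 1.17% to 2.66% of the THZ1-labelled mean, with a median of 1.97%. The cause was not tested.

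**Figure D3:**
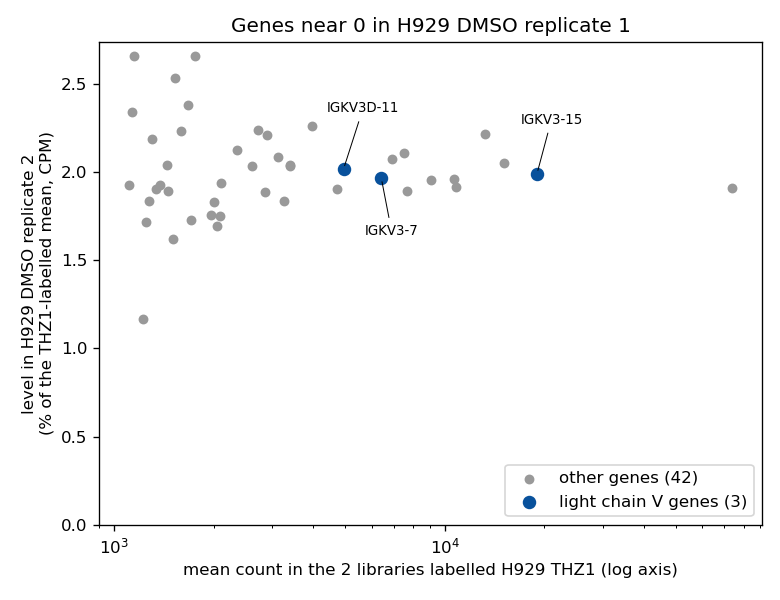
Level in H929 DMSO replicate 2 as a percent of the mean level under the THZ1 label (vertical axis, from CPM) against the mean count under the THZ1 label (horizontal log axis), for the 45 genes with at most 2 counts in H929 DMSO replicate 1 and at least 1000 in both libraries labelled H929 THZ1. The 3 light chain V genes, in blue, lie at 1.97% to 2.02%, within the band of the other 42 genes.

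Reads that map to more than 1 place were left out by the authors, and the V genes differ widely in how much of their sequence is unique. Of 129 members matched by gene ID to the annotation (78 V genes and 51 pseudogenes), 16 had a V exon without a single stretch of 50 bases that occurs once in GRCh37, and 33 had only such stretches. The median over genes was 27.2% unique stretches for kappa and 100% for lambda. None of the 16 genes without a unique stretch had a count in any library. IGKV3-15, with the most kappa counts, had 50 unique stretches among 247 (20.2%), and 197 of its stretches recur in its distal copy IGKV3D-15, which differs from it at 1 of 296 aligned positions. IGKV3D-15 itself, with 13 of 249, had 0 to 5 counts. IGKV3-7 had 183 of 250 unique stretches while its distal copy IGKV3D-7 had 0 of 250 and 0 counts, and IGKV3D-11 had 121 of 249 against 93 of 247 for its proximal copy IGKV3-11. IGKV3-11 had 24 and 17 counts under the H929 THZ1 label, 1 to 6 in JJN3 and 0 under the H929 DMSO label. Among the lambda genes IGLV2-28 had 205 of 209 unique stretches, IGLV2-11 had 187 of 263 and IGLV2-23 had 180 of 245. A count of one of these genes is thus a count of its distinguishable reads, and ranks among near copies are uncertain. In the reference sequence, IGKV3-15 shared 0 stretches with IGKV3-7 and 5 with IGKV3D-11. IGLV2-28 shared 0 with IGLV2-11 and 0 with IGLV2-23, and IGLV2-11 shared 5 with IGLV2-23.

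The genes that shared the counts of a library were alike in sequence, but not every like gene had counts. V exon identity to IGKV3-15, over aligned positions without gaps, was 93.6% for IGKV3-7 and 93.2% for IGKV3D-11. No kappa gene outside the IGKV3 family had more than 5 counts in any library. Under the H929 DMSO label, identity to IGLV2-28 was 90.3% for IGLV2-11 and for IGLV2-14, 87.9% for IGLV2-23 and 86.8% for IGLV2-34. IGLV2-18, named after its values were seen, also had 90.3% identity to IGLV2-28 and only 2 and 5 counts there, and IGKV3-20, at 93.9% identity to IGKV3-15, had 0 and 1 count under the H929 THZ1 label. In JJN3 the same IGKV3-7 and IGKV3D-11 stayed at 1 to 14 counts beside 5064 to 9117 of IGKV3-15. Exons of IGLV2-28, IGLV2-11, IGLV2-23 and IGLV2-14 overlap exons of other annotated genes. The same holds for IGLV2-18, with its few counts, and not for IGLV2-34. Whether reads of 1 rearranged and mutated gene were divided among these reference genes was not tested, since the count tables hold no read sequence.

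**Figure D4:**
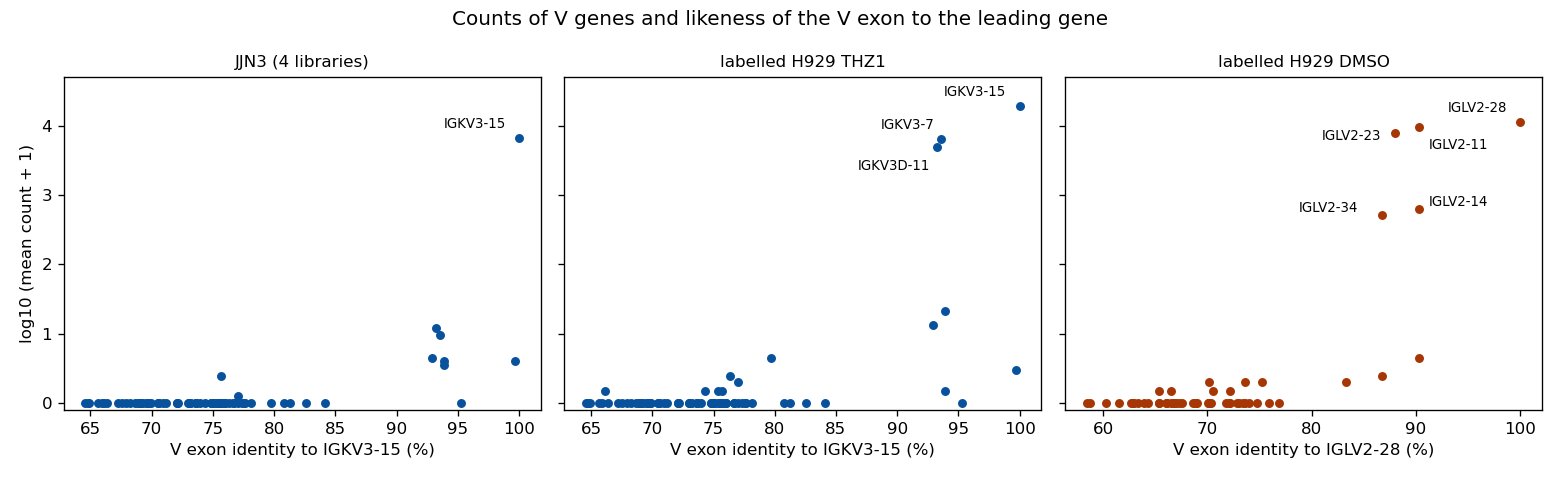
Mean count, as log10 of the count plus 1 (vertical axis), against V exon identity to the leading gene in percent (horizontal axis), for kappa genes in JJN3 (left), for kappa genes in the libraries labelled H929 THZ1 (center) and for lambda genes in those labelled H929 DMSO (right), with 1 point per gene. All labelled points, the genes with over 100 counts, lie at identities of 86.8% or more.

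The genes that held the counts were also spread along the loci. Between IGKV3-15 and the J segment IGKJ4 lie 224239 bp with 14 members, IGKV3-7 among them. In JJN3 these 14 genes held 7 to 16 counts per library. Under the H929 THZ1 label they held 6983 and 5919, of which all but 35 and 19 were on IGKV3-7, while IGKV3D-11 lies in the distal cluster. Between the lambda genes IGLV2-28 and IGLJ3 lie 239653 bp with 25 members, IGLV2-23, IGLV2-14 and IGLV2-11 among them, and these 25 held 18820 and 17160 counts under the H929 DMSO label. As background, the joining of a V to a J segment in the same orientation deletes what lies between them from that chromosome.

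Most J counts of each library lay on the chain of its V genes, while the kappa constant gene stayed near 0 in the kappa libraries. In JJN3, IGKJ4 counts were 1205 and 1405 with DMSO against 1645 and 1615 with THZ1, 96.0% to 97.6% of the J counts, and no lambda J segment had a count. Under the H929 DMSO label, IGLJ3 had 2668 and 2756 counts (99.5% and 99.0%), and the lambda constant gene IGLC3 had 24879 and 22803. IGLC2, its neighbor, had 23 and 12. Under the H929 THZ1 label the J counts were 203 and 260 in all, of which 32 and 18 were on lambda segments, and the highest segment held 33.0% and 33.5% of them, IGKJ5 in replicate 1 and IGKJ4 in replicate 2. The kappa constant gene IGKC had 11 counts in both JJN3 libraries with DMSO, 58 and 29 with THZ1, 0 under the H929 DMSO label, and 8 and 12 under the H929 THZ1 label. IGKC was thus near 0 in libraries with 5085 to 31491 kappa V counts, and the reason was not tested. IGLL5, a lambda-like gene, had 1523 and 1382 counts under the H929 THZ1 label, 0 and 27 under the H929 DMSO label and at most 1 in JJN3. Heavy chain V genes (155 by the same kind of rule) had 0 to 15 counts per library in all.

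The comparison of THZ1 with DMSO in JJN3 asks how 24 h of CDK7 inhibition affected light chain transcripts in a line whose 4 libraries shared one dominant V gene. Levels here are shares of the RNA sequenced, so the amount of a transcript per cell was not measured. By this measure IGKV3-15 was higher after THZ1. It stood at 264 and 269 CPM with DMSO and 419 and 493 CPM with THZ1 (266 ± 3.62 against 456 ± 52.8, SD, n = 2 each), and the groups did not overlap. In edgeR's quasi-likelihood test over the 13984 genes that passed its filter on low counts, with Benjamini-Hochberg adjustment, IGKV3-15 had a log2 fold change of 0.88 (SE 0.092, adjusted p = 1.5e-05). The call was lost when all 8 libraries were put in one fit (log2 fold change 0.86, adjusted p = 0.118). That fit estimated the spread between replicates over all groups, the libraries labelled H929 DMSO included, which had 0 and 372 counts of IGKV3-15.

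Only 4 of the 132 genes passed the filter in JJN3, and 2 were called higher at an adjusted p under 0.05 and a log2 fold change beyond 0.5, where 20.6% of all genes tested were called higher. IGLV3-9 and IGKV3-7 reached 10 counts in JJN3 only with THZ1, so they passed the filter through the group in which they were high. The numbers of calls therefore describe the genes tested, and no direction for the family is read from them. None was called lower, by edgeR or DESeq2 or at an unadjusted p under 0.05. For IGLV3-9 and IGKV3-7 the filter itself left little room for such a call. The lack of lower calls is therefore not weighed against the 21.3% of all genes tested that were called lower. IGLV6-57 went from 6 and 8 counts to 1 and 2 but did not pass the filter, so it could not be called. The second call was IGLV3-9, a lambda V gene, at 4 and 5 counts under DMSO and 13 and 20 under THZ1 (log2 fold change 2.03, SE 0.49, adjusted p = 0.0043, edgeR). Its V exon consists of unique stretches only. The groups did not overlap, but the counts were few, and the adjusted p was 0.0968 with DESeq2 and 0.0595 in edgeR without JJN3 DMSO replicate 1. IGKV3-7, with 1 and 9 counts against 12 and 12, had a log2 fold change of 1.43 and an adjusted p of 0.081, and 3.59 and 0.0172 without JJN3 DMSO replicate 2 (edgeR). IGKV3D-11, with 7 and 11 counts against 12 and 14, had 0.71 and an adjusted p of 0.191 in the same edgeR test. IGKV3D-20 had 3 and 2 counts against 2 and 7, and its proximal copy IGKV3-20 had 2 and 1 against 2 and 5, and neither was tested.

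Summed over all 132 genes, the level was higher in both THZ1 libraries than in both DMSO libraries, 460 ± 53.7 against 268 ± 4.04 CPM (SD, n = 2 each), a log2 ratio of 0.77. The exact permutation test, two-sided, gave p = 0.333, the smallest that 2 libraries against 2 allow, so this design cannot reach p < 0.05. This sum was at least 99% IGKV3-15 in every JJN3 library and is no second line of evidence.

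**Figure D5:**
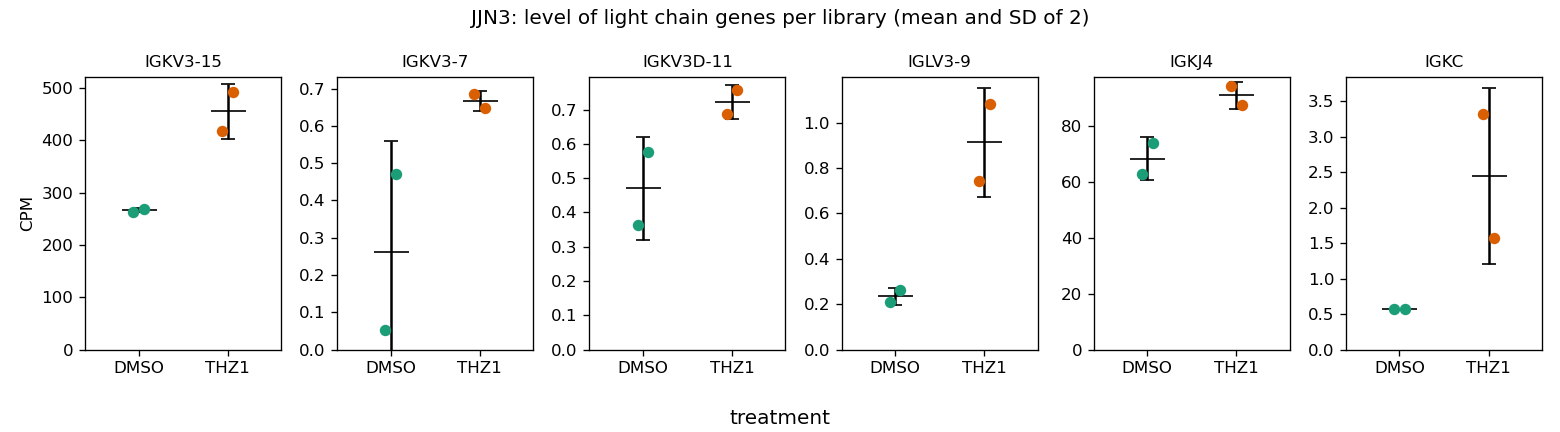
Level in CPM (vertical axis, from 0, with its own scale in each panel) of 6 light chain genes in JJN3, with 1 point per library and the mean with its SD as bars, for DMSO and THZ1 (horizontal axis). IGKV3-15 stands at 264 and 269 CPM with DMSO and 419 and 493 CPM with THZ1, and IGKC stays under 4 CPM throughout.

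The other light chain segments tested in JJN3 moved the same way. Of 19 J and constant segments, 3 passed the filter and 3 were called higher, beside 20.6% of all genes tested. Their median log2 fold change was 0.87, that of IGKJ5, with 36 and 35 counts against 69 and 44. The median over all genes tested was -0.00036, a value that the scaling brings near 0. IGKJ4, the J segment with the most counts, stood at 62.8 and 73.6 CPM with DMSO and 94.1 and 87.4 CPM with THZ1 (log2 fold change 0.52, SE 0.096, adjusted p = 0.00079, edgeR). IGKC stood at 0.573 and 0.576 CPM against 3.32 and 1.57 (log2 fold change 2.18, adjusted p = 0.0015, edgeR), on 58 counts or fewer per library. IGLL1, the surrogate light chain gene of B cell precursors, had 208 and 187 counts against 157 and 121, which did not pass the test (log2 fold change -0.31, adjusted p = 0.172, edgeR).

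Genes that act on light chain transcription moved in both directions in JJN3. Of 20 listed regulators 16 were tested, and 5 were called lower and 6 higher, against 21.3% and 20.6% of all genes tested, with a median log2 fold change of 0.31. POU2F2, which encodes the lymphoid octamer-binding factor Oct-2, fell from 40.3 and 36.5 CPM to 25.0 and 24.3 (log2 fold change -0.54, adjusted p = 0.00096, edgeR). POU2F1, which encodes the broadly expressed Oct-1, rose from 39.1 and 37.9 CPM to 77.9 and 62.4 (log2 fold change 0.97, adjusted p = 3.9e-05, edgeR). Their coactivator POU2AF1 was not called (log2 fold change -0.21, adjusted p = 0.0679, edgeR). IRF4 and SPIB, whose products can bind together at light chain enhancers, were called lower (log2 fold changes -0.55 and -1.02). XBP1, which drives the secretory program, and ID3, an inhibitor of E proteins, were called lower as well (-0.61 and -0.79). Called higher beside POU2F1 were BACH2 (1.42) and BCL6 (0.96), repressors of the plasma cell program, ID2 (1.39), the relative of ID3, and IKZF3 (1.33) and MEF2C (0.55), transcription factors of the B lineage. Of 24 genes for folding and secretion of immunoglobulin, all were tested, 3 were called lower and 7 higher, to be read against the same shares over all genes (median log2 fold change 0.24). Among them HERPUD1, of ER-associated degradation, fell by 1.06 on the log2 scale, and PDIA6, a protein disulfide isomerase, rose by 0.89. Of the 8 plasma cell markers, again beside 21.3% lower over all genes, 5 were called lower and 0 higher (edgeR; 1 had a positive log2 fold change at an unadjusted p under 0.05), and their summed level was 2089 to 2125 CPM with DMSO and 1387 to 1411 CPM with THZ1. The lists overlap: of the markers called lower, IRF4 and XBP1 were also counted among the regulators and MZB1 among the folding genes. IRF4 (934 and 923 CPM against 586 and 592) and XBP1 (543 and 557 against 320 and 350) made up the largest parts of the sum. The part of these genes in the light chain values was not tested.

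Between the libraries labelled H929, the same test compares different light chains. Of the 132 genes 11 passed the filter, and 5 were called lower and 6 higher under the THZ1 label, where 32.6% and 33.1% of the 14863 genes tested were called lower and higher. A gene passed the filter here only through the group in which it was high, so these counts describe the split and support nothing further. The 5 lower genes were IGLV2 genes with 0 counts in both libraries labelled H929 THZ1. Against the limit of 3 counts per library, IGLV2-28 was at least 3803-fold lower in CPM, IGLV2-11 at least 3179-fold, IGLV2-23 at least 2590-fold, IGLV2-14 at least 209-fold and IGLV2-34 at least 170-fold.

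The higher genes were led by the 3 IGKV3 genes. IGKV3-15 stood at 0 and 20.6 CPM under the DMSO label and 1054 and 1016 CPM under the THZ1 label, 100.3-fold higher on the means, and at least 6469-fold higher without H929 DMSO replicate 2. IGKV3-7 was 102-fold higher, at least 2187-fold without that library, and IGKV3D-11 was 99.0-fold higher, at least 1682-fold without it. The fold of each of these genes thus rests on 1 library. With DESeq2 IGKV3-15 was not called here (adjusted p = 0.0737), and IGKV3-7 and IGKV3D-11 had adjusted p-values of 0.0474 and 0.0432. IGLV3-9 had 0 and 2 counts against 40 and 31, at least 12.1-fold higher without H929 DMSO replicate 2. The summed level of all 132 genes was 1644 ± 24.7 CPM under the DMSO label and 1659 ± 74.8 under the THZ1 label (SD, n = 2 each), a log2 ratio of 0.013 between sums of different genes, from which nothing is read.

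Cell type markers differed between these labels too. The summed level of 8 plasma cell markers was 1762 to 1921 CPM under the DMSO label and 7072 to 7160 CPM under the THZ1 label. Of these 8, 6 were called higher and 2 lower (edgeR), beside 33.1% and 32.6% of all genes tested. The 2 lower were MZB1 (350 and 382 CPM against 186 and 176) and CD38 (96.5 and 91.7 CPM against 65.9 and 64.0). The summed level of 7 myeloid markers was 26.2 to 33.4 CPM against 0.434 to 0.492. That of 7 T cell markers was 8.59 to 8.74 against 37.7 to 38.2, and that of 7 B cell markers 9.97 to 11.98 against 29.4 to 30.4. Single genes carried the myeloid, T cell and B cell sums. ITGAM made up 25.7 to 32.4 CPM of the myeloid sum under the DMSO label and had 0 counts under the THZ1 label. CD3E went from 0.80 and 1.44 CPM to 34.7 and 35.5, while CD8A, another T cell marker, went the other way, from 6.45 and 5.99 CPM to 0. CD79B made up 9.65 to 11.5 CPM of the B cell sum under the DMSO label and 28.3 to 29.4 under the THZ1 label. At most 3 counts were found in both DMSO-labelled libraries for 4 of the myeloid, 3 of the T cell and 5 of the B cell markers, and in both THZ1-labelled libraries for 6, 4 and 3. Their part in the light chain difference was not tested.

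Part of the light chain V genes have a promoter feature that the symbols do not show, the octamer ATTTGCAT, the motif known to be bound by Oct-1 and Oct-2. It was searched on both strands from 250 bases before to 50 bases after each annotated gene start. It was found in 72 of the 129 matched members (55.8%), against 335 of 20176 protein-coding genes (1.66%) in windows of the same length. Among members, 70.5% of those annotated as V genes and 33.3% of the pseudogenes held it. These shares depend on where a gene is annotated to start. Some pseudogenes, such as IGLV2-34 (283 bases of exon, all V exon), are annotated from the V exon on. Some V genes, such as IGLV2-23 (502 bases of exon, against 400 for IGLV2-11), have a longer annotation. Whether the octamer lies outside the window in such genes was not tested. The shorter core TTTGCAT, which every octamer contains, was found in 83 members (64.3%) against 4.05% of protein-coding genes. None of the 14 IGKV3 genes had the whole octamer and 10 had the core, IGKV3-15, IGKV3-7 and IGKV3D-11 among them. IGLV2-11 and IGLV2-14 had the octamer, and IGLV2-28, IGLV2-23 and IGLV2-34 did not have these letters in this window.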

How the data were processed

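RNA-seq was deposited for JJN3 and H929 with DMSO or THZ1 (24 h, 50 nM), 2 libraries per group. The authors aligned reads to hg19 with STAR 2.5.2a, kept reads mapping once, and deposited raw counts per Ensembl gene from featureCounts. The strand setting is not given in the sources used here. The authors' comparison tables (fold changes and p-values by DESeq2 1.12.4) were used for gene symbols only. Groups and replicate numbers came from the labels.

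THZ1 was compared with DMSO separately for each line by edgeR 4.0.16 under R 4.3.3 (quasi-likelihood test, TMM scaling, filterByExpr, Benjamini-Hochberg adjustment over all genes tested), a method checked on simulated counts. The simulation changed far fewer genes than were called here, evenly in both directions and none at the lowest counts. It does not show how the method does on changes this wide or on genes with few counts. DESeq2 1.42.0 served as an alternative. A gene was called at an adjusted p under 0.05 and a log2 fold change beyond 0.5. Shares have 95% Wilson intervals. Positions and sequences came from GRCh37 and GENCODE v44lift37, in which 129 of 132 members were matched by ID; the kappa V sequences are not reported here. Named were the 5 V genes with the highest counts in each library, V genes called in JJN3, their distal or proximal copies, and IGKC, IGLC2, IGLC3 and IGLL5. The members, gene lists and tests were chosen with earlier results of these data known. Alternatives were other scaling, filters, thresholds and fits, and leaving out each library.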

Additional observations from a re-analysis of the deposited data

Results flagged for a closer look

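IGLV6-57, a lambda V gene, had 6 and 8 counts with DMSO against 1 and 2 with THZ1 in JJN3, and 0 and 0 against 1 and 1 under the H929 labels, a mean difference of 0.0545 CPM in the latter. The order of the groups was opposite in the 2 comparisons, but the gene passed the filter in neither, the difference was not tested, and the H929 counts lie under the limit of 3 counts per library, so no direction is read from them.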

How the results depend on the processing

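The number of light chain V genes called higher in JJN3 fell from 2 to 1 with DESeq2, with a filter of 1 CPM in 2 libraries, with all 8 libraries in one fit and with a log2 fold change beyond 1, and ranged from 1 (without DMSO replicate 1) to 3 (without DMSO replicate 2) when a library was left out. The gene left was IGKV3-15 with DESeq2, the CPM filter and without DMSO replicate 1, and IGLV3-9 in the fit of all 8 libraries and beyond a log2 fold change of 1. The count called lower was 0 under every alternative run. IGKV3-15 in JJN3 was past the threshold in 11 of 12 alternatives of tool, scaling, filter, fit and libraries, with log2 fold changes of 0.78 to 0.96 (0.79 to 0.96 leaving out a library), and was not in the fit of all 8 libraries (0.86, adjusted p = 0.118, edgeR). The latter also took in the libraries labelled H929 DMSO, with 0 and 372 counts of this gene. The cause of the lost call was not tested. Scaling by total counts moved the median of all JJN3 genes to -0.10 on the log2 scale.

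Under the H929 labels 5 to 7 genes were called higher and 5 lower when a library was left out. The mean share of IGLV2-28 in the libraries labelled H929 DMSO went from 37.8% to 46.4% per kilobase. Leaving out a library, the leading share ranged from 99.1% to 99.3% in JJN3 with either treatment, from 37.7% to 38.0% under the H929 DMSO label and from 61.5% to 63.2% under the H929 THZ1 label. The log2 ratio of the summed level under the H929 labels, 0.013, changed sign with TMM-scaled CPM (-0.036), without H929 DMSO replicate 2 (-0.0025) and without H929 THZ1 replicate 1 (-0.033), and ranged from -0.033 to 0.059 when a library was left out. In JJN3 it then ranged from 0.65 to 0.89.

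The deviations of libraries with the same replicate number correlated at 0.012 in JJN3 and -0.031 under the H929 labels, so the numbers did not pair the libraries. With a replicate block 3 genes were called higher in JJN3 (IGKV3-7 at an adjusted p of 0.040, edgeR), and 6 higher and 5 lower under the H929 labels.

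Reads shared between near-identical V genes were left out of the counts, and the filter on low counts kept 4 of 132 genes in JJN3.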
